A study of Homo sapiens with 22 samples.

Results

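The levels of 10 lineage genes were followed through all 22 libraries. They are 10 of the 26485 gene symbols in each count table, taken by symbol because they mark lung identity (NKX2-1, SFTA3, SFTPB and NAPSA), breast identity (GATA3, ESR1 and PGR) or both epithelia and their developmental relatives (FOXA1, FOXA2 and GATA6). They were chosen by their levels in the untreated libraries, which were already known, so those levels are given here as a description with no test. All 22 libraries are labelled MDA-MB231, a human triple-negative breast cancer cell line, that is, one without estrogen receptor, progesterone receptor or HER2 amplification, and they come from 3 experiments on HDAC6, a mostly cytoplasmic deacetylase of tubulin. In the first experiment, cells given Nexturastat A, an HDAC6 inhibitor, at 7.65 µM for 2 days (n = 2) are set against a group titled Ctrl whose treatment label is DMSO (n = 2). In the second, cells carrying either of 2 hairpins against HDAC6, shHDAC6-1 (n = 3) and shHDAC6-2 (n = 3), are set against a control hairpin, shCtrl (n = 3), all at day 0. In the third, cells given HPOB (n = 3) or Tubastatin A (n = 3), a pair of HDAC6 inhibitors, are set against a group titled DMSO (n = 3), all at day 2. The labels give no dose for HPOB or Tubastatin A, and the titles of the Tubastatin A libraries abbreviate the compound as TSA. Apart from the compound or the hairpin, the labels give all groups the same line and growth conditions, with no other allele. Nothing in them says that replicates of a group came from separate cultures, so p-values measure the spread between these libraries, which may be technical. Ctrl and DMSO are the same treatment by label, so whatever differs between them cannot be told apart from the experiment they belong to.

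NKX2-1 is a homeodomain transcription factor of the lung, the thyroid and the ventral forebrain. In lung it acts with the forkhead factors FOXA1 and FOXA2 and with GATA6 on surfactant genes such as SFTPB. In luminal breast cells, FOXA1 and GATA3 open and hold enhancers to which the estrogen receptor, encoded by ESR1, binds, and PGR, the progesterone receptor gene, is one of its targets. Triple-negative cells lack both receptor proteins by definition.

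The libraries held 31238740 to 85942315 counts in total, and those of the DMSO experiment, the shallowest, 31238740 to 41261706. Levels are given in counts-per-million of the library's total (CPM), and a count of 3, the limit that a count of 0 allows, was worth 0.0349 to 0.0960 CPM. Intervals and such limits cover counting error only. In every library most counts from 1 to 50 were even numbers (63.4 to 71.7%). Replicates 1 and 2 of the hairpin groups stood apart from replicate 3 and from the other experiments, and they are therefore given separately throughout. CDKN2A, a cell cycle inhibitor gene that is deleted in MDA-MB-231, had 0 counts in Ctrl, in shCtrl replicate 3 and in DMSO, against a mean of 150.7 CPM in shCtrl replicates 1 and 2. IRS4, an insulin receptor substrate, was likewise at 356 CPM in shCtrl replicates 1 and 2 and at 0 counts in Ctrl, shCtrl replicate 3 and DMSO; both genes were chosen after their values were seen. Whether these libraries come from one line was not tested.

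A set of 3 promoter stretches is shown. NKX2-1 and SFTA3 lie side by side and share one annotated start. FOXA1 lies on the same arm of chromosome 14 and followed them with all libraries pooled, though not within every experiment. SFTPB is a lung target gene of NKX2-1, shown for comparison. The stretches are RefSeq sequence of build GRCh38.p14, on the minus strand. Each is the part of the 250 bases before a start that lies outside any GENCODE 29 exon.
NKX2-1 and SFTA3, chr14:36519694-36519806: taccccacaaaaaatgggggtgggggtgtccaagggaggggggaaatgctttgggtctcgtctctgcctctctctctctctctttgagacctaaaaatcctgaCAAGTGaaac
FOXA1, chr14:37595349-37595499: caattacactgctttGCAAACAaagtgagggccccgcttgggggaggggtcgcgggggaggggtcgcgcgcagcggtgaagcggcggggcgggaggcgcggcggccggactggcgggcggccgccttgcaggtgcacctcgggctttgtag
SFTPB, chr2:85668742-85668991: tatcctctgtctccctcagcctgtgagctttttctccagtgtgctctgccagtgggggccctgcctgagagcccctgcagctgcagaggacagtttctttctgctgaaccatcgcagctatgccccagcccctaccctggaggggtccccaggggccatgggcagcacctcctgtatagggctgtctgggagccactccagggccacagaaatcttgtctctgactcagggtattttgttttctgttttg
Capitals mark the NK2 homeodomain motif CAAGTG in the first and, in the second, GCAAACA, which is the forkhead motif TGTTTGC on the other strand. Both strands of each 250-base window were searched for CAAGTG, for the forkhead motif TGTTTAC or TGTTTGC and for the GATA motif AGATAA or TGATAA, and none of the matches overlapped another motif. CAAGTG stood 147 to 142 bases before the shared start, and the forkhead match stood 235 to 229 bases before the FOXA1 start. Of 35116 human windows, 9.50% hold CAAGTG somewhere on either strand and 6.09% hold a forkhead match. The part of the shared window that is exonic in some transcripts and is not shown also held TGTTTAC, 130 to 124 bases before the start, and AGATAA on the other strand, a GATA motif that 14.6% of windows hold. The part of the FOXA1 window that is not shown held CAAGTG on the other strand, 12 to 7 bases before the start. The SFTPB window shown held none of the 3 motifs, and neither did a window before another SFTPB start, chr2:85668200-85668449. The window before another SFTA3 start, chr14:36513536-36513785, also held none. Matches were not confined to the lung genes. CAAGTG stood 82 to 77 bases before an ESR1 start and, on the other strand, 238 to 233 bases before a PGR start. TGTTTGC stood 138 to 132 bases before a GATA3 start and 241 to 235 bases before another NKX2-1 start. Only these exact letters were searched, so variant forms of such sites would be missed. All but FOXA2, 9 of the 10 genes, matched a RefSeq window.

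In untreated cells NKX2-1, SFTA3 and FOXA1 were far lower in DMSO than in the other sets, which was not so for FOXA2 and GATA6. NKX2-1 had 64.6 and 52.5 CPM in Ctrl, 60.3 CPM in shCtrl replicate 3, and 17.4 and 16.9 CPM in shCtrl replicates 1 and 2, against 1.52, 0.776 and 0.992 CPM in DMSO. The mean in Ctrl was thus 53.4 times that in DMSO, although both groups received the same vehicle by label, and the ratio to DMSO was 55.0 in shCtrl replicate 3 and 15.7 in shCtrl replicates 1 and 2. No DMSO library came near any other untreated library, whereas shCtrl replicate 3 fell inside the Ctrl range. In bulk RNA, fewer cells that make a transcript and less of it in each cell cannot be told apart. NKX2-1 lies at chr14:36516392-36521149 (GRCh38, minus strand) and overlaps the antisense gene NKX2-1-AS1. The antisense gene was also higher in Ctrl than in DMSO, at 0.641 against 0.0538 CPM on average, a ratio of 11.9. The strand setting of the counting is not given in the sources used here, so reads of overlapping genes cannot be told apart.

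SFTA3, a surfactant-associated gene next to NKX2-1 at chr14:36473288-36513829 (minus strand), was likewise lowest in DMSO. It had 30.5 and 28.8 CPM in Ctrl, 21.1 CPM in shCtrl replicate 3, and 8.38 and 4.75 CPM in shCtrl replicates 1 and 2, against 0.109, 0.0535 and 0.192 CPM in DMSO. The 3 DMSO libraries held only 2 to 6 counts each, and the Ctrl to DMSO ratio of means was 251. All other untreated libraries held at least 289 counts, and the 4 sets did not overlap, with Ctrl the highest.

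The surfactant genes downstream of NKX2-1 were low in every untreated library. SFTPB encodes surfactant protein B, which spreads the surfactant film in alveoli, and lies at chr2:85657314-85668741. It had 1.45 and 0.812 CPM in Ctrl, 0.278 CPM in shCtrl replicate 3, and 0.0379 and 0.0986 CPM in shCtrl replicates 1 and 2, against 0.109, 0.0268 and 0.128 CPM in DMSO. The Ctrl libraries stood above all others, and shCtrl replicates 1 and 2, with NKX2-1 near 17 CPM, overlapped DMSO for SFTPB. NAPSA encodes the aspartic protease that processes the surfactant protein B precursor, and lies at chr19:50358477-50365830 where it overlaps NR1H2, a gene at 55.9 to 105.7 CPM on average in the 4 untreated sets. NAPSA had 0.963 and 0.731 CPM in Ctrl, 0.524 CPM in shCtrl replicate 3, and 2.50 and 2.27 CPM in shCtrl replicates 1 and 2, against 1.38, 2.01 and 1.28 CPM in DMSO, so it was lowest where NKX2-1 was highest. NAPSB, a near copy of NAPSA, was at 1.34 CPM in shCtrl replicates 1 and 2 and at 0 counts in Ctrl, shCtrl replicate 3 and DMSO, so the split of reads between both copies makes NAPSA uncertain in shCtrl replicates 1 and 2.

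The forkhead factors parted. FOXA1, at chr14:37589984-37596059 (minus strand, overlapping TTC6), had 9.15 and 9.29 CPM in Ctrl, 10.0 CPM in shCtrl replicate 3, and 7.32 and 6.77 CPM in shCtrl replicates 1 and 2, against 0.163, 0.241 and 0.256 CPM in DMSO. The 3 DMSO libraries held 6 to 9 FOXA1 counts each, and the mean in Ctrl was 41.9 times the mean in DMSO. FOXA2, at chr20:22581005-22585455 (minus strand), had 98.4 and 79.8 CPM in Ctrl, 76.3 CPM in shCtrl replicate 3, and 4.93 and 5.47 CPM in shCtrl replicates 1 and 2, against 33.1, 33.8 and 38.2 CPM in DMSO. FOXA1 was thus nearly lost in DMSO and FOXA2 was lowest in shCtrl replicates 1 and 2, where it reached 0.148 times its DMSO level.

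Both GATA factors were highest where FOXA2 was lowest. GATA6, an endoderm factor of the developing lung and gut at chr18:22169443-22202528 (plus strand), had 13.9 and 15.5 CPM in Ctrl, 13.7 CPM in shCtrl replicate 3, and 71.7 and 70.5 CPM in shCtrl replicates 1 and 2, against 40.8, 43.4 and 43.5 CPM in DMSO. GATA3, the luminal breast and T cell factor at chr10:8045378-8075203 (plus strand), had 4.70 and 5.51 CPM in Ctrl, 6.22 CPM in shCtrl replicate 3, and 44.6 and 47.3 CPM in shCtrl replicates 1 and 2, against 13.0, 14.2 and 15.5 CPM in DMSO. For both, shCtrl replicates 1 and 2 were the highest untreated libraries and Ctrl and shCtrl replicate 3 the lowest, with DMSO between them and no overlap between the 4 sets. Their antisense neighbours GATA6-AS1 and GATA3-AS1 averaged at most 2.95 CPM in any untreated set.

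The hormone receptors that define luminal breast cells were at or near the detection limit. ESR1, at chr6:151656691-152129619 (plus strand, overlapping SYNE1), had 0.0664 and 0.0650 CPM in Ctrl, 0.0154 CPM in shCtrl replicate 3, and 0.417 and 0.0986 CPM in shCtrl replicates 1 and 2, against 0.163, 0 and 0.0640 CPM in DMSO. PGR, at chr11:101029624-101130524 (minus strand), had 0.0166 and 0 CPM in Ctrl, 0 CPM in shCtrl replicate 3 and 0 CPM in all 3 DMSO libraries. In shCtrl replicates 1 and 2 it had 0.682 and 0.625 CPM, which are 36 and 38 counts. PGR was thus detected in shCtrl replicates 1 and 2 and was at or below 1 count in the other 6 untreated libraries.

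**Figure D1:**
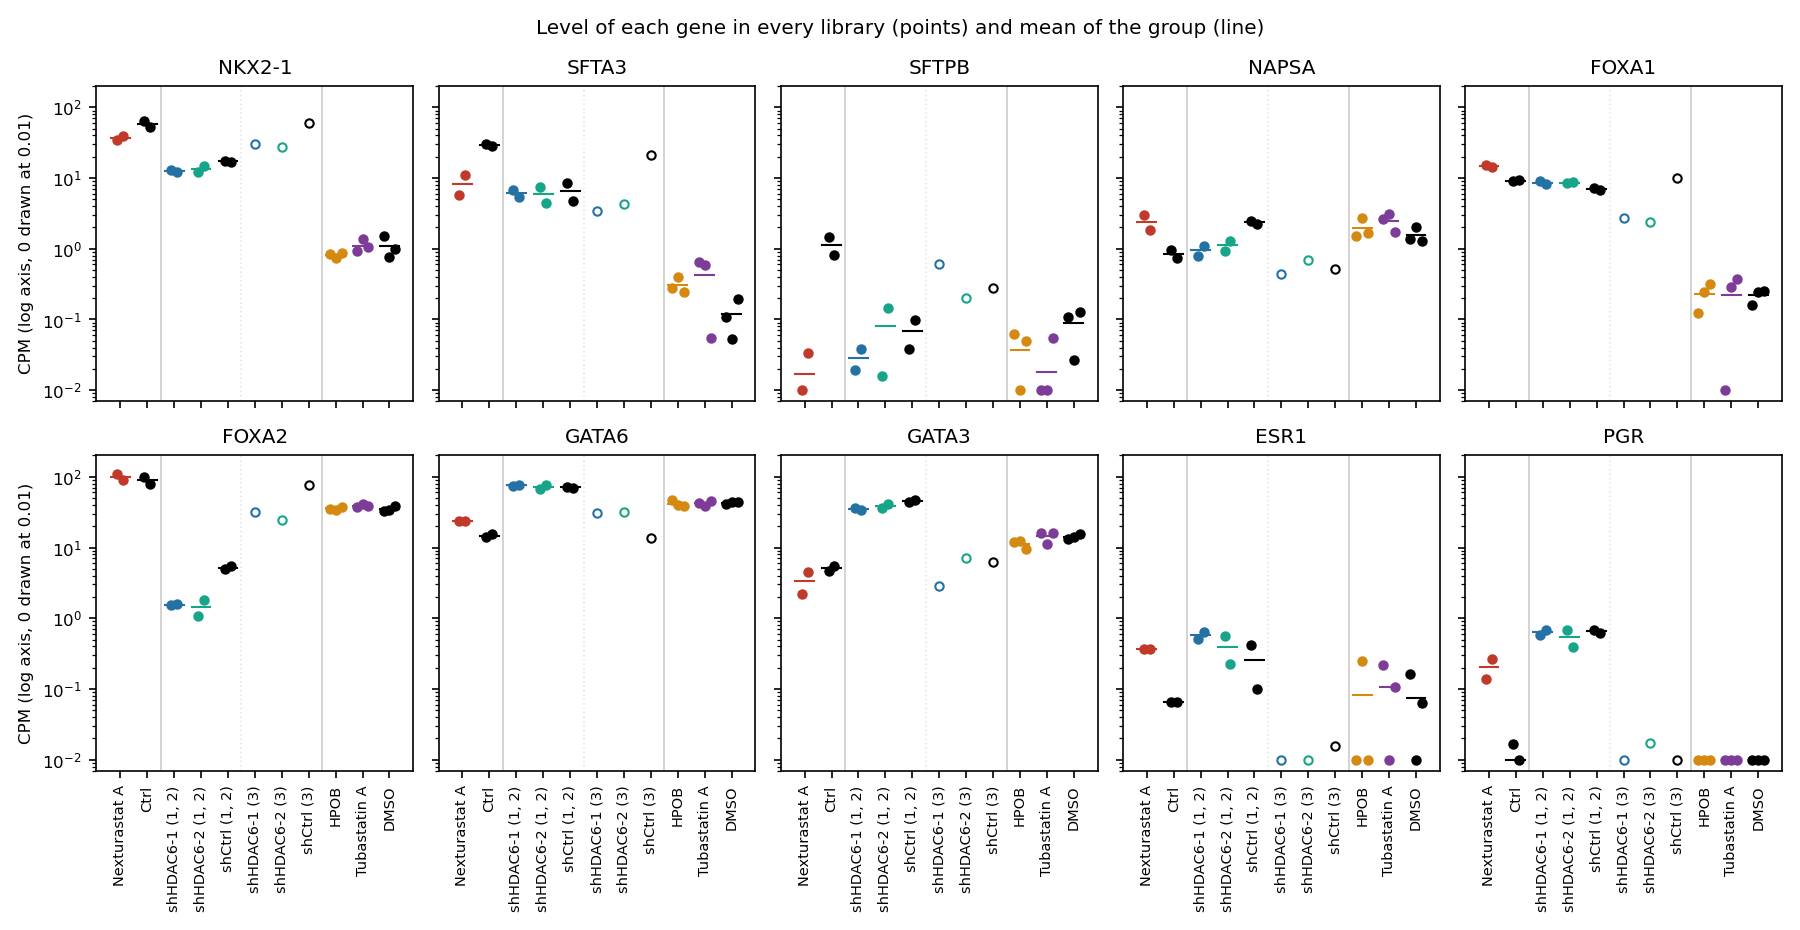
Level of each of the 10 genes in all 22 libraries, one panel per gene, in CPM on a log axis with a count of 0 drawn at 0.01. Points are libraries, open circles are replicate 3 of the hairpin groups and short lines are group means; NKX2-1, SFTA3 and FOXA1 are lowest in the 9 libraries of the DMSO experiment and GATA6 and GATA3 are highest in hairpin replicates 1 and 2.

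Divided by the length of each gene's exons, the levels can be ordered within a set. In Ctrl the order was FOXA2 at 34.2, NKX2-1 at 18.5, SFTA3 at 9.54, GATA6 at 3.73, FOXA1 at 2.32 and GATA3 at 1.49 CPM per kb. In shCtrl replicate 3 it was the same order, led by FOXA2 at 29.3 and NKX2-1 at 19.0 CPM per kb. In shCtrl replicates 1 and 2 the GATA factors led, with GATA6 at 18.0 and GATA3 at 13.4 CPM per kb, ahead of NKX2-1 at 5.43 CPM per kb, and SFTA3 and FOXA2 overlapped at 2.11 and 2.00 CPM per kb. In DMSO, FOXA2 at 13.5 and GATA6 at 10.8 CPM per kb led, GATA3 followed at 4.14, and NKX2-1 at 0.346 overlapped NAPSA at 0.435 CPM per kb. NKX2-1 was therefore second in Ctrl and shCtrl replicate 3, while GATA6 and GATA3 outranked it in DMSO and in shCtrl replicates 1 and 2.

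**Figure D2:**
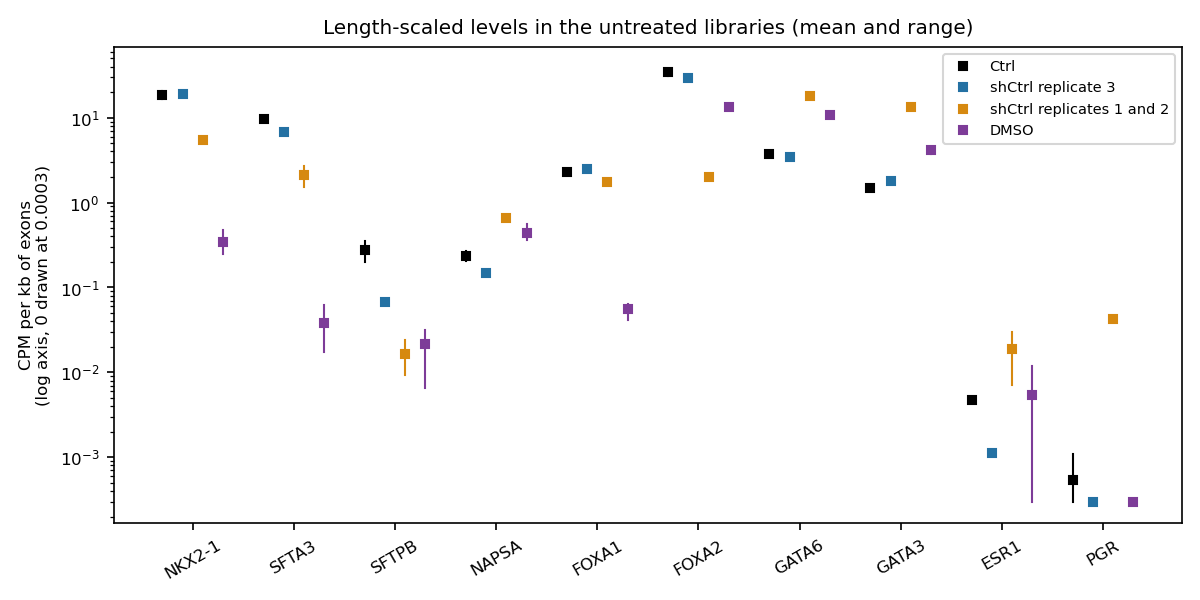
Mean level (points) and range (bars) of the 10 genes in the 4 untreated sets, in CPM per kb of exon on a log axis with 0 drawn at 0.0003. FOXA2 and NKX2-1 lead in Ctrl (34.2 and 18.5) and shCtrl replicate 3 (29.3 and 19.0), and GATA6 and GATA3 lead in shCtrl replicates 1 and 2 (18.0 and 13.4).

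Wider lists of tissue markers, chosen like the 10 genes with earlier results known, showed neither a lung nor a luminal program in full. Of 20 lung epithelium genes, 7 reached 1 CPM in Ctrl, 6 in shCtrl replicate 3, 9 in shCtrl replicates 1 and 2 and 6 in DMSO. Their summed level was 297 to 356 CPM in Ctrl, 251 CPM in shCtrl replicate 3 and 418 to 455 CPM in shCtrl replicates 1 and 2, against 235 to 239 CPM in DMSO. LPCAT1, a lysophospholipid acyltransferase of surfactant lipid synthesis that many tissues also express, made up most of this sum, at 265, 232, 237 and 170.0 CPM in these sets. Several alveolar and airway secretory genes were at or near 0. SFTPA1 and SCGB1A1 had 0 counts in Ctrl, and SFTPC had 0 counts in the other 3 sets. Other genes of the list were well above 0. ABCA3, a lipid transporter of lamellar bodies, averaged 26.0 CPM in Ctrl, 8.14 in shCtrl replicate 3, 115 in shCtrl replicates 1 and 2 and 24.0 in DMSO. CTSH averaged 7.05, 1.68, 66.9 and 35.2 CPM in the same order. MUC5B, an airway mucin, was at 12.9 CPM in Ctrl and between 1.18 and 1.70 CPM in the other 3 sets.

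Of 29 luminal breast genes, 20 reached 1 CPM in Ctrl, 17 in shCtrl replicate 3, 21 in shCtrl replicates 1 and 2 and 17 in DMSO. They summed to 2108 to 2120 CPM in Ctrl, 1560.5 CPM in shCtrl replicate 3 and 879 to 926 CPM in shCtrl replicates 1 and 2, against 1819 to 1903 CPM in DMSO. KRT8, a keratin of simple epithelia, averaged 735 CPM in Ctrl, 652 in shCtrl replicate 3 and 258 in shCtrl replicates 1 and 2, against 731 CPM in DMSO. MLPH, a melanophilin gene often high in luminal tumours, was at 158 CPM in Ctrl, 98.2 in shCtrl replicate 3 and 5.22 in shCtrl replicates 1 and 2, against 114 CPM in DMSO. The mammary secretory genes SCGB2A2 and PIP had 0 counts in all 4 sets. KRT8 and MLPH were thus lowest in the 2 untreated libraries with the most GATA3.

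Shared tissues of NKX2-1 were also looked at. The thyroid genes FOXE1, a forkhead factor, and SLC5A5, the iodide transporter, were at 4.05 and 13.9 CPM in shCtrl replicates 1 and 2, and at most 0.0491 CPM in Ctrl, shCtrl replicate 3 and DMSO. PAX8, the thyroid and kidney factor, went the other way, with 3.51 CPM in Ctrl, 2.93 in shCtrl replicate 3 and 1.08 in shCtrl replicates 1 and 2, against 10.6 CPM in DMSO. Among paralogs, GATA2 was at 104 CPM and GATA4 at 36.0 CPM in shCtrl replicates 1 and 2, where Ctrl had 15.4 and 0.0162 CPM. NKX2-5, the cardiac relative of NKX2-1, was at 14.96 CPM in Ctrl, 23.7 in shCtrl replicate 3 and 88.7 in shCtrl replicates 1 and 2, against 0.205 CPM in DMSO. CDX2, an intestinal factor, averaged 42.9 CPM in shCtrl replicates 1 and 2 and had 0 counts in Ctrl, shCtrl replicate 3 and DMSO. Of 11 genes of kidney development, 9 were at 1 CPM or more in shCtrl replicates 1 and 2, against 3 in Ctrl, 3 in shCtrl replicate 3 and 4 in DMSO. Among them, the nephron progenitor factor SIX2 averaged 53.5 CPM in shCtrl replicates 1 and 2, with 1.24 in Ctrl, 1.45 in shCtrl replicate 3 and 5.72 CPM in DMSO. The neurofilament genes NEFL and NEFM averaged 82.8 and 69.0 CPM in shCtrl replicates 1 and 2 and had 0 counts in Ctrl, shCtrl replicate 3 and DMSO.

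The chromosome 14 genes around NKX2-1 shared its difference between Ctrl and DMSO. NKX2-1, SFTA3 and FOXA1 lie on one stretch, with the FOXA1 start 1.07 Mb from the NKX2-1 start. Of the 18 other genes within 2 Mb of NKX2-1 that averaged at least 1 CPM, 12 (66.7%) were over 2-fold higher in Ctrl than in DMSO and 0 were over 2-fold lower. In shCtrl replicate 3 over DMSO, 11 of the 18 (61.1%) were, and in shCtrl replicates 1 and 2 over DMSO, 4 of the 18 (22.2%). Elsewhere on chromosome 14, 68 of 400 genes (17%) were over 2-fold higher in Ctrl than in DMSO, and over all 12649 matched genes it was 1673 (13.2%). For shCtrl replicate 3 over DMSO the shares were 13.75% elsewhere on chromosome 14 and 9.04% over all matched genes. For shCtrl replicates 1 and 2 over DMSO they were 16.75% and 19.2%, so the 22.2% of the stretch was near the share of all genes there. This stretch was chosen after its values were seen, and the counts are a description.

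MBIP, a kinase-binding protein gene near NKX2-1, averaged 60.2 CPM in Ctrl against 17.8 CPM in DMSO. NKX2-8, a homeodomain relative, was at 15.2 CPM against 0.136 CPM, and PAX9, a factor of tooth and foregut, at 18.5 CPM against 0.646 CPM. MIPOL1, between PAX9 and FOXA1, was at 35.5 CPM in Ctrl against 5.00 CPM in DMSO. Not every gene of the stretch differed in this way. NFKBIA, the inhibitor of NF-kB, was at 60.9 CPM in Ctrl against 67.6 CPM in DMSO, and PPP2R3C, a phosphatase subunit, at 32.8 CPM against 33.5 CPM. EAPP, farther out than both, was at 59.9 CPM in Ctrl against 23.9 CPM in DMSO.

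**Figure D3:**
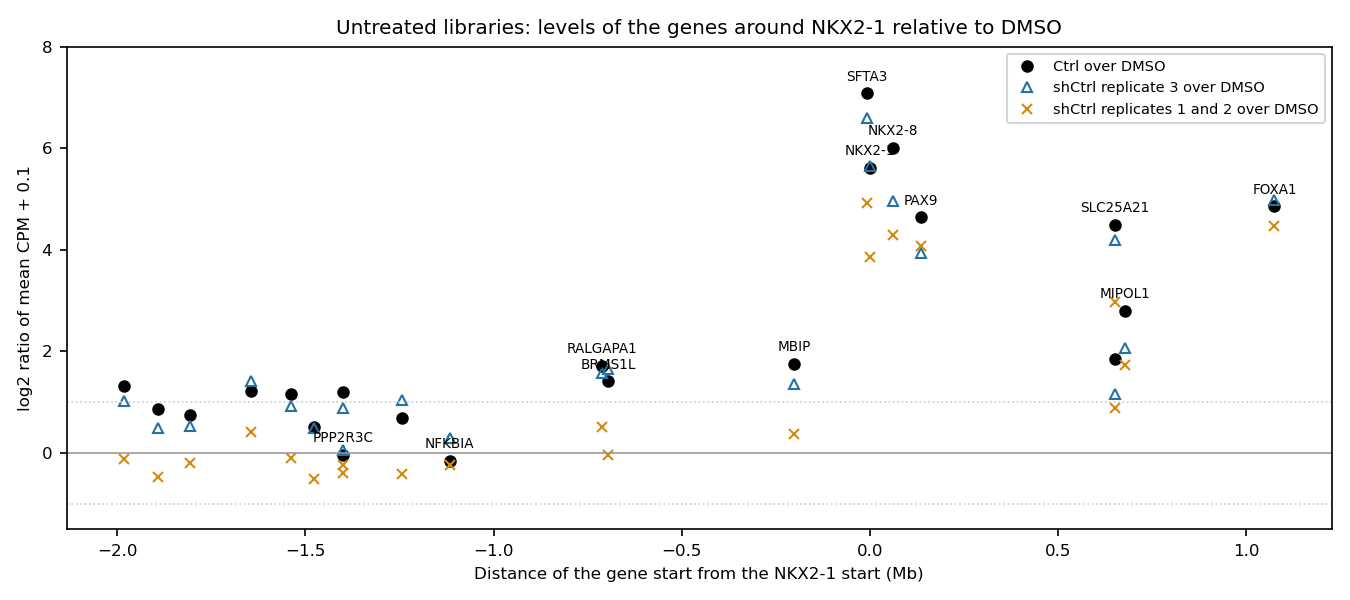
Log2 ratio of mean CPM (with 0.1 added) to DMSO for genes along chromosome 14, against the distance of each gene's start from the NKX2-1 start in Mb. Black points are Ctrl, blue triangles shCtrl replicate 3 and orange crosses shCtrl replicates 1 and 2. Of the 18 genes within 2 Mb other than NKX2-1, SFTA3 and FOXA1, 12 lie above a 2-fold difference in Ctrl and 4 in shCtrl replicates 1 and 2. Over all matched genes, 13.2% and 19.2% were over 2-fold higher than in DMSO.

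Across the 22 libraries, which fall into separate experiments, 2 groups of genes stood out by Pearson correlation of log2(CPM + 0.1). These correlations describe the libraries and carry no test, since the libraries share experiment and depth. NKX2-1 went with SFTA3 (0.947) and FOXA1 (0.926). FOXA1 did not follow NKX2-1 within every experiment. With Nexturastat A the log2 fold change was 0.59 for FOXA1 and -0.76 for NKX2-1. With shHDAC6-1 and shHDAC6-2 in replicates 1 and 2 it was 0.37 and 0.38 for FOXA1. For NKX2-1 it was -0.38 and -0.26 there, and none of these hairpin changes was called. In hairpin replicate 3 both genes were below shCtrl. GATA6 went with GATA3 (0.862), and FOXA2 ran against GATA6 (-0.836) and GATA3 (-0.841). NKX2-1 and FOXA2 were unrelated over the same libraries (-0.0626), and SFTPB followed NKX2-1 loosely (0.552). Of genes with counts in all 22 libraries, IFNLR1, an interferon lambda receptor chain, was most like NKX2-1 (0.984), LAMA4, a laminin chain, was most like SFTA3 (0.956), and TC2N was most like FOXA1 (0.979). LINC01139 and DUSP4, a MAP kinase phosphatase, were the genes most like FOXA2 (0.984 and 0.981). C1QTNF1 was most like GATA6 (0.984), MTHFD1, a folate enzyme, most like GATA3 (0.970), GPNMB most like NAPSA (0.920) and RAPGEF3 most like SFTPB (0.848).

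NKX2-1, SFTA3 and SFTPB fell with Nexturastat A, and NAPSA, FOXA1, GATA6 and ESR1 rose. In edgeR's quasi-likelihood test with Benjamini-Hochberg adjustment over 16678 genes, in which a gene is called at an adjusted p under 0.05, 36.6% of all genes were called, 21.1% higher and 15.5% lower. Of the 10 genes, 9 passed the filter on low counts and PGR did not; 7 of the 9 were called, 3 lower and 4 higher. In the Ctrl comparison HDAC6 itself was at 27.9 and 27.0 CPM with Nexturastat A against 30.1 and 28.6 CPM in Ctrl (log2 fold change -0.19 ± 0.14 SE, edgeR adjusted p = 0.328).

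NKX2-1 had 34.5 and 39.0 CPM with Nexturastat A, against 64.6 and 52.5 CPM in Ctrl. It was lower in both treated libraries, a log2 fold change of -0.76 ± 0.16 SE (edgeR adjusted p = 0.0105). The call rested on Ctrl replicate 1, without which the log2 fold change was -0.62 and the adjusted p 0.136. SFTA3 fell to 5.71 and 10.9 CPM with Nexturastat A, against 30.5 and 28.8 CPM in Ctrl (log2 fold change -1.92 ± 0.30 SE, edgeR adjusted p = 0.00491). SFTPB went to 0 and 2 counts with Nexturastat A, against 87 and 50 counts in Ctrl. Over both libraries of each group, the CPM ratio was 0.0151 with an exact 95% counting interval of 0.00182 to 0.0558, and the gene was called lower (edgeR adjusted p = 0.00381). For these 3 genes the treated and Ctrl libraries did not overlap, and SFTA3 and SFTPB were called lower without any 1 of the 4 libraries.

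NAPSA went the other way from SFTPB, whose precursor its product processes. It had 2.98 and 1.84 CPM with Nexturastat A, against 0.963 and 0.731 CPM in Ctrl (log2 fold change 1.41 ± 0.38 SE, edgeR adjusted p = 0.0262). FOXA1 had 15.4 and 14.2 CPM with Nexturastat A, against 9.15 and 9.29 CPM in Ctrl, and rose by a log2 fold change of 0.59 ± 0.18 SE (edgeR adjusted p = 0.0365). GATA6 had 23.6 and 23.4 CPM with Nexturastat A, against 13.9 and 15.5 CPM in Ctrl, a log2 fold change of 0.59 ± 0.16 SE (edgeR adjusted p = 0.0269). The groups did not overlap for any of the 3, yet each of these calls was lost without Ctrl replicate 1 (edgeR adjusted p = 0.102 for NAPSA, 0.279 for FOXA1 and 0.280 for GATA6) or without Ctrl replicate 2 (0.173, 0.258 and 0.167), and the NAPSA call also without Nexturastat A replicate 1 (0.0620). In these refits the lone library of a group is assumed to vary like the other group. They were also lost once trends of log2 CPM with GC content and exon length were removed, at log2 fold changes of 0.94 for NAPSA, 0.16 for FOXA1 and 0.15 for GATA6 (edgeR adjusted p = 0.0776, 0.434 and 0.446). That correction moved the median log2 fold change of all genes from 0.03 to -0.22 and left 33.9% of calls higher, against 57.6% without it. NKX2-1, SFTA3, SFTPB and ESR1 were called in the same direction after it.

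FOXA2, the highest of the 10 per kb in Ctrl, had 111 and 90.6 CPM with Nexturastat A, against 98.4 and 79.8 CPM in Ctrl. The groups overlapped and FOXA2 was not called (log2 fold change 0.09, 95% interval -0.28 to 0.46, edgeR adjusted p = 0.682), although it turned to -0.48 and was called lower after the GC and length correction (edgeR adjusted p = 0.0337). LINC00261, a long non-coding RNA gene beside FOXA2 that was picked after its values were seen, was at 9.46 and 12.7 CPM with Nexturastat A, against 41.0 and 45.8 CPM in Ctrl (log2 fold change -2.06 ± 0.19 SE, edgeR adjusted p = 0.000996). GATA3 had 2.17 and 4.45 CPM with Nexturastat A, against 4.70 and 5.51 CPM in Ctrl. Both treated libraries were below both Ctrl libraries, but GATA3 was not called (log2 fold change -0.71 ± 0.36 SE, edgeR adjusted p = 0.158). It was called lower without Nexturastat A replicate 2 (-1.33, adjusted p = 0.00379) and after the GC and length correction (-1.21, adjusted p = 0.0321).

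ESR1 had 21 and 22 counts with Nexturastat A, or 0.362 and 0.371 CPM, against 4 counts in each Ctrl library, or 0.0664 and 0.0650 CPM. It was called higher (log2 fold change 2.35 ± 0.63 SE, edgeR adjusted p = 0.0255), a call lost in DESeq2's Wald test (adjusted p = 0.0774) and in edgeR without any 1 of the 4 libraries (adjusted p = 0.169 without either Ctrl library, 0.0901 and 0.0944 without Nexturastat A replicate 1 or 2). PGR, which was not tested, had 8 and 16 counts with Nexturastat A, against 1 and 0 counts in Ctrl. Its CPM ratio was 24.9, with an exact 95% counting interval of 4.06 to 1024. Both receptors thus stayed below 0.4 CPM in the treated cells.

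Other marker lists moved in both directions with Nexturastat A, where 21.1% of all genes tested were called higher and 15.5% lower. Of 11 lung epithelium genes tested, 5 were called higher and 3 lower, with a median log2 fold change of 0.92, beside 0.03 over all genes tested. MUC5B fell to 0.704 CPM with Nexturastat A, against 12.9 CPM in Ctrl (-4.27, edgeR adjusted p = 0.00223), and LAMP3, a lamellar body protein gene, rose to 17.2 CPM, against 5.19 CPM in Ctrl (1.64, adjusted p = 0.00194). SFTPA2, a surfactant protein A gene, was at 0.496 CPM with Nexturastat A and at 0 counts in Ctrl and was called higher (edgeR adjusted p = 0.00662). Of 25 luminal breast genes tested, 9 were called higher and 3 lower, with AZGP1 at 25.5 CPM with Nexturastat A against 2.12 CPM in Ctrl (3.50, edgeR adjusted p = 0.000402). Of 16 estrogen response genes, 6 were called higher and 1 lower, with RERG, a growth-inhibitory GTPase, at 15.8 CPM with Nexturastat A against 1.47 CPM in Ctrl (3.34, edgeR adjusted p = 0.000813).

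Of 9 foregut and endoderm factors tested, 4 were called higher and 2 lower with Nexturastat A, and HNF4G fell to 0.648 CPM with Nexturastat A, against 3.68 CPM in Ctrl (-2.59, edgeR adjusted p = 0.00195). None of the 6 GATA, FOXA and NKX paralogs tested was called, beside 36.6% of all genes tested. Of 12 chromosome 14 neighbours of NKX2-1, 2 were called lower and 1 higher. MBIP was at 41.7 CPM with Nexturastat A, against 60.2 CPM in Ctrl (-0.62, edgeR adjusted p = 0.0103). NKX2-8 and PAX9, on the same stretch, were not called (-0.04 and 0.36, edgeR adjusted p = 0.891 and 0.129).

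**Figure D4:**
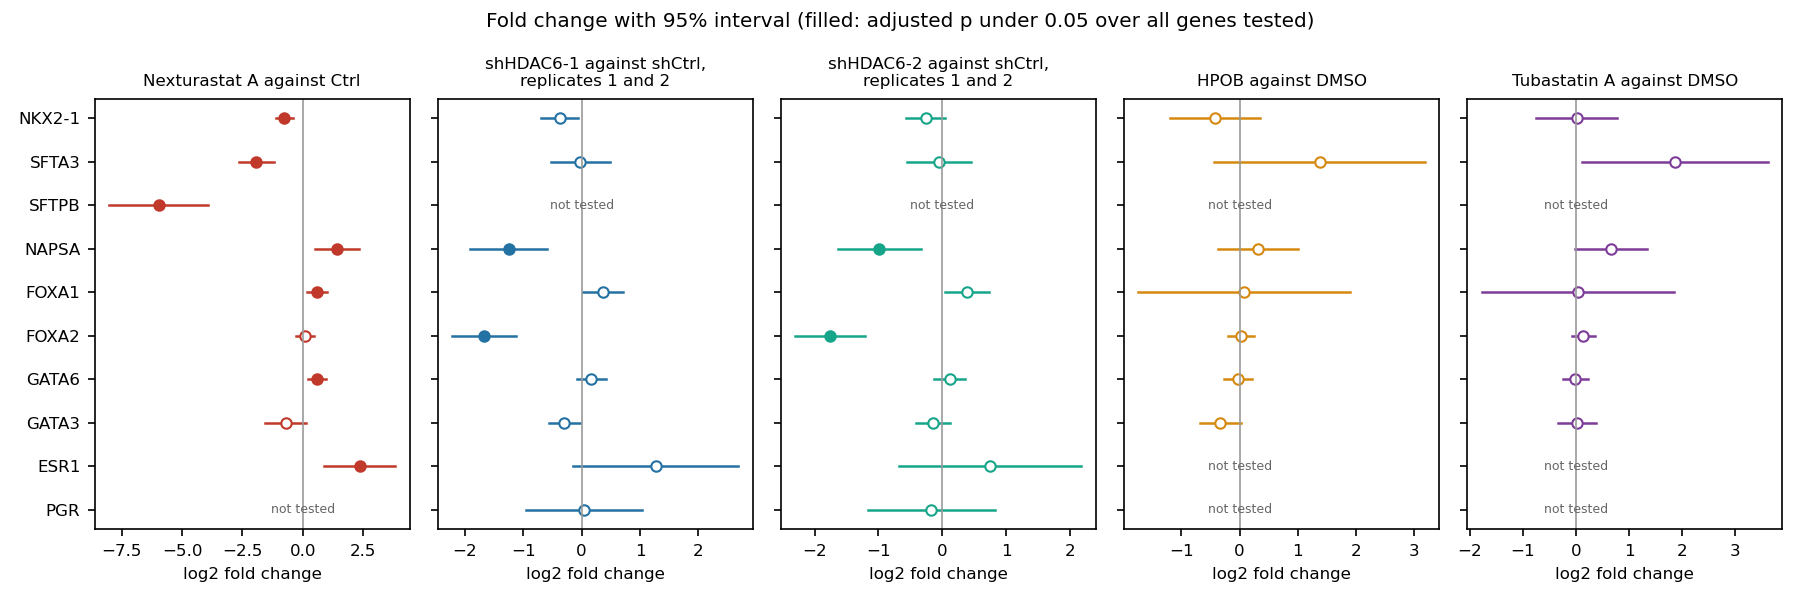
Log2 fold change with its 95% interval for each of the 10 genes in 5 comparisons: Nexturastat A over Ctrl, both hairpins over shCtrl in replicates 1 and 2, and HPOB and Tubastatin A over DMSO. Filled points are called at an adjusted p under 0.05, genes under the count filter are marked as not tested, and the x axes differ between panels; NKX2-1 is called lower with Nexturastat A (-0.76) and FOXA2 with both hairpins (-1.67 and -1.76).

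The targeted gene was lower with both hairpins in every replicate. HDAC6 had 12.6, 11.8 and 9.20 CPM with shHDAC6-1 and 12.2, 13.6 and 11.6 CPM with shHDAC6-2, against 47.8, 54.6 and 24.9 CPM in shCtrl. Fitted over all 9 libraries, edgeR's quasi-likelihood test called 0 of 17653 genes with either hairpin (percent called 0), HDAC6 included. At an unadjusted p under 0.05 there were 191 genes with shHDAC6-1 and 219 with shHDAC6-2, and DESeq2's Wald test called 3 genes with each. In that fit the FOXA2 log2 fold change was -1.08 for shHDAC6-1 and -1.47 for shHDAC6-2, which turned to 1.93 and 1.56 without shCtrl replicate 3 and to -4.36 and -4.46 without replicate 3 of the hairpin. For NKX2-1, leaving out shCtrl replicate 3 likewise turned the log2 fold change to 0.65 and 0.56. Set against the shCtrl library of like number, FOXA2 and NKX2-1 were lower in all 6 knockdown libraries, and with the replicate block the FOXA2 log2 fold change was -1.46 and -1.70 (edgeR adjusted p = 0.821 and 0.770).

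Within replicates 1 and 2, FOXA2 and NAPSA fell with both hairpins and the other genes tested were not called. The test called 30.5% of 17702 genes with shHDAC6-1 and 27.6% with shHDAC6-2, and of all genes it called 15.2% and 13.2% lower and 15.3% and 14.4% higher. All but SFTPB, 9 of the 10 genes, passed the filter, and 2 of 9 were called with each hairpin, both lower. HDAC6 changed by -1.99 ± 0.14 SE and -1.90 ± 0.14 SE on the log2 scale (edgeR adjusted p = 9.52e-10 and 1.77e-09).

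FOXA2 had 1.53 and 1.56 CPM with shHDAC6-1 and 1.09 and 1.79 CPM with shHDAC6-2, against 4.93 and 5.47 CPM in shCtrl. All 4 knockdown libraries were below both control libraries, at log2 fold changes of -1.67 ± 0.26 SE and -1.76 ± 0.26 SE (edgeR adjusted p = 4.54e-05 and 2.51e-05). NAPSA had 0.785 and 1.11 CPM with shHDAC6-1 and 0.944 and 1.31 CPM with shHDAC6-2, against 2.50 and 2.27 CPM in shCtrl. Its log2 fold changes were -1.25 ± 0.32 SE and -0.99 ± 0.31 SE (edgeR adjusted p = 0.00480 and 0.0210), and NAPSA is uncertain here for its copy NAPSB. The NAPSA call was lost without shHDAC6-1 replicate 1 (adjusted p = 0.0623), and for shHDAC6-2 without shCtrl replicate 1 or shHDAC6-2 replicate 1 (adjusted p = 0.0728 and 0.168).

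NKX2-1 had 12.8 and 12.3 CPM with shHDAC6-1 and 12.04 and 14.7 CPM with shHDAC6-2, against 17.4 and 16.9 CPM in shCtrl. All 4 knockdown libraries were lower than both controls, but the gene was not called (log2 fold changes -0.38 and -0.26, edgeR adjusted p = 0.0610 and 0.203). GATA3 had 36.7 and 34.2 CPM with shHDAC6-1 and 35.6 and 41.8 CPM with shHDAC6-2, against 44.6 and 47.3 CPM in shCtrl, and was not called either (-0.30 and -0.15, edgeR adjusted p = 0.0883 and 0.421). With only genes of at least 5 CPM on average in the fit, NKX2-1 and GATA3 were called lower with shHDAC6-1 (-0.43 and -0.35, edgeR adjusted p = 0.0307 and 0.0399).

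FOXA1 had 8.99 and 8.21 CPM with shHDAC6-1 and 8.42 and 8.75 CPM with shHDAC6-2, against 7.32 and 6.77 CPM in shCtrl (log2 fold changes 0.37 and 0.38, edgeR adjusted p = 0.102 and 0.0919). GATA6 had 75.1 and 76.2 CPM with shHDAC6-1 and 68.1 and 75.4 CPM with shHDAC6-2, against 71.7 and 70.5 CPM in shCtrl, with overlap for shHDAC6-2 (0.17 and 0.11, edgeR adjusted p = 0.297 and 0.526). Both genes were called higher with both hairpins once GC and length trends were removed, FOXA1 at 0.47 and 0.43 and GATA6 at 0.37 and 0.24. The ratio of knockdown to shCtrl ran against GC content across 13674 genes in these replicates, with rank correlations of -0.421 and -0.303. SFTA3, ESR1 and PGR were not called with either hairpin, and their 95% intervals spanned 0. Without shCtrl replicate 1, ESR1 was called higher with shHDAC6-1 (log2 fold change 2.60, edgeR adjusted p = 0.0291, against 1.27 and 0.170 with all libraries), and without shCtrl replicate 2 its log2 fold change was 0.57. For SFTA3 the intervals ran from -0.53 to 0.48 with shHDAC6-1 and from -0.56 to 0.45 with shHDAC6-2.

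In replicate 3, where each group had 1 library and no test was possible, FOXA2, NKX2-1, SFTA3 and FOXA1 were below their control and GATA6 was above it. FOXA2 had 31.6 CPM with shHDAC6-1 and 24.6 CPM with shHDAC6-2, against 76.3 CPM in shCtrl. FOXA2 was thus lower than the shCtrl library of the same number in all 6 knockdown libraries. Those 6 share 3 shCtrl libraries, and the number did not pair libraries within replicates 1 and 2. NKX2-1 had 30.6 CPM with shHDAC6-1 and 27.1 CPM with shHDAC6-2, against 60.3 CPM in shCtrl. SFTA3 had 3.47 CPM with shHDAC6-1 and 4.26 CPM with shHDAC6-2, against 21.1 CPM in shCtrl. FOXA1 had 2.76 CPM with shHDAC6-1 and 2.43 CPM with shHDAC6-2, against 10.0 CPM in shCtrl, and GATA6 had 31.2 and 31.6 CPM, against 13.7 CPM in shCtrl. On the log2 scale FOXA1 was at -1.86 and -2.04 relative to its control, and GATA6 at 1.19 and 1.21.

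The replicate 3 hairpin libraries also differed from their control in composition. CDKN2A and IRS4, the genes that set replicates 1 and 2 apart, were at 7.11 and 7.31 CPM with shHDAC6-1 and at 24.1 and 22.3 CPM with shHDAC6-2 in replicate 3, against 0 counts of either in shCtrl replicate 3, and their part in these differences was not tested. The TMM scaling factors of these 2 libraries were 0.654 and 0.669, against 0.993 to 1.16 in all other libraries, and their log2 ratio to shCtrl replicate 3 followed GC content across 13674 genes, with rank correlations of 0.780 and 0.756. Scaled by TMM, the log2 ratios were -0.67 and -1.06 for FOXA2, -0.37 and -0.58 for NKX2-1, -2.003 and -1.74 for SFTA3, -1.26 and -1.47 for FOXA1, and 1.79 and 1.78 for GATA6. The direction was the same for all 5 genes under both scalings, but GATA3 parted the hairpins, at -1.14 with shHDAC6-1 and 0.21 with shHDAC6-2 before scaling. NKX2-1 exons are 60.6% GC and FOXA2 exons 58.2%, above the 48.6% median of genes, while SFTA3 exons are 42.4%. The part of GC content in these ratios was not tested.

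Several luminal breast genes fell with HDAC6 knockdown in replicates 1 and 2. Of 23 tested, 9 were called lower and 2 higher with each hairpin, with median log2 fold changes of -0.34 and -0.43, beside medians of -0.020 and 0.0016 over all genes and a share of 15.2% and 13.2% of all genes called lower. MLPH was at 1.94 CPM with shHDAC6-1 and 1.57 CPM with shHDAC6-2, against 5.22 CPM in shCtrl (-1.35 and -1.63, edgeR adjusted p = 0.000152 and 1.86e-05). AGR2, a secretory disulfide isomerase gene, was at 0.135 and 0.259 CPM with the hairpins, against 1.60 CPM in shCtrl (-3.46 and -2.52, edgeR adjusted p = 0.000169 and 0.00142). MUC1, the epithelial mucin, was at 0.729 and 0.995 CPM, against 2.87 CPM in shCtrl (-1.90 and -1.43, edgeR adjusted p = 0.000443 and 0.00393). FOXA3, another FOXA gene, fell as FOXA2 did and averaged 3.14 CPM under shHDAC6-1 and 3.06 under shHDAC6-2, against 5.99 CPM in shCtrl (-0.86 and -0.88, edgeR adjusted p = 0.00441 and 0.00382). HNF4G was also lower with both hairpins (-0.90 and -1.23, edgeR adjusted p = 0.0491 and 0.00954). Replicate 3, with 1 library a group and so no test, went the same way for some of these genes and the other way for others. The summed luminal level there was 3168 CPM for shHDAC6-1 and 2526 for shHDAC6-2, against 1560.5 CPM in shCtrl. MUC1 was at 2.04 and 1.36 CPM with the hairpins against 0.308 CPM in shCtrl, and FOXA3 at 0.535 and 0.747 CPM against 0 counts. AGR2 was lower there too, at 7.17 and 2.77 CPM with the hairpins against 23.1 CPM in shCtrl.

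Over all genes tested in replicates 1 and 2, 15.2% were called lower and 15.3% higher with shHDAC6-1, and 13.2% lower and 14.4% higher with shHDAC6-2. Of 11 lung epithelium genes tested in these replicates, 2 were called lower and 0 higher with shHDAC6-1, and 2 lower and 1 higher with shHDAC6-2. AQP4, a water channel gene, was lower with both (-0.90 and -0.91, edgeR adjusted p = 0.0344 and 0.0324), and ABCA3, the lamellar body lipid transporter, was higher with shHDAC6-2 (0.52, edgeR adjusted p = 0.00593). Of 17 estrogen response genes, 4 were called higher and 1 lower with shHDAC6-1, and 5 higher and 1 lower with shHDAC6-2, while ESR1 stayed below 0.7 CPM. STC2, a secreted glycoprotein gene, rose to 145 and 154 CPM with the hairpins, against 96.0 CPM in shCtrl (0.67 and 0.78, edgeR adjusted p = 0.000109 and 2.20e-05). Of 12 chromosome 14 neighbours, 3 were called higher with each hairpin and 0 lower. They were BRMS1L, PPP2R3C and RALGAPA1, on the stretch where NKX2-1 was not called. Replicate 3, with 1 library a group and so no test, went the other way for all 3. RALGAPA1 was there at 3.69 and 3.28 CPM with shHDAC6-1 and shHDAC6-2, against 73.4 CPM in shCtrl. BRMS1L was at 7.62 and 7.22 CPM against 63.9 CPM, and PPP2R3C at 8.13 and 7.33 CPM against 34.9 CPM.

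None of the 10 genes was called with HPOB or Tubastatin A. With HPOB, edgeR's test called 4 of 15338 genes (0.0261%), 1588 had an unadjusted p under 0.05 and DESeq2 called 102. With Tubastatin A it called 0 (percent called 0), 757 had an unadjusted p under 0.05 and DESeq2 called 18. All but SFTPB, ESR1 and PGR, 7 of the 10 genes, passed the filter, and 0 were called with either compound. In all 12 marker lists, 0 genes were called with either. HDAC6, whose protein the compounds inhibit, had 95.1, 67.1 and 126 CPM with HPOB and 94.997, 122 and 96.1 CPM with Tubastatin A, against 88.8, 85.6 and 98.2 CPM in DMSO (log2 fold changes 0.08 and 0.19, edgeR adjusted p = 0.872 and 0.864).

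NKX2-1 had 0.841, 0.734 and 0.880 CPM with HPOB and 0.921, 1.36 and 1.05 CPM with Tubastatin A, against 1.52, 0.776 and 0.992 CPM in DMSO. Neither difference was called (log2 fold changes -0.42 and 0.01, edgeR adjusted p = 0.641 and 0.995), and the 95% intervals ran from -1.20 to 0.35 and from -0.74 to 0.77. SFTA3 had 0.280, 0.398 and 0.244 CPM with HPOB and 0.650, 0.582 and 0.0540 CPM with Tubastatin A, against 0.109, 0.0535 and 0.192 CPM in DMSO. All HPOB libraries were above all DMSO libraries, but SFTA3 was not called with either compound (1.38 and 1.86, edgeR adjusted p = 0.539 and 0.857) on 32 and 50 counts, against 12 in DMSO. FOXA1 had 0.125, 0.245 and 0.318 CPM with HPOB and 0, 0.291 and 0.378 CPM with Tubastatin A, against 0.163, 0.241 and 0.256 CPM in DMSO, close to the limit of a count of 0 (0.0727 to 0.0960 CPM in these 9 libraries).

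The genes at higher levels gave narrower intervals. FOXA2 had 35.4, 33.8 and 37.8 CPM with HPOB and 36.9, 40.6 and 38.3 CPM with Tubastatin A, against 33.1, 33.8 and 38.2 CPM in DMSO, with 95% intervals of -0.20 to 0.24 and -0.08 to 0.35 for the log2 fold change. GATA6 had 47.2, 39.8 and 38.3 CPM with HPOB and 42.3, 39.0 and 46.0 CPM with Tubastatin A, against 40.8, 43.4 and 43.5 CPM in DMSO, with intervals of -0.27 to 0.21 and -0.25 to 0.23. GATA3 had 11.9, 12.5 and 9.68 CPM with HPOB and 16.0, 11.1 and 16.3 CPM with Tubastatin A, against 13.0, 14.2 and 15.5 CPM in DMSO. HPOB libraries were all below DMSO libraries for GATA3, but the gene was not called (-0.33, 95% interval -0.68 to 0.02, edgeR adjusted p = 0.503). NAPSA had 1.495, 2.69 and 1.66 CPM with HPOB and 2.63, 3.05 and 1.73 CPM with Tubastatin A, against 1.38, 2.01 and 1.28 CPM in DMSO (0.31 and 0.66, edgeR adjusted p = 0.694 and 0.857). SFTPB, ESR1 and PGR were at most 0.245 CPM in any of these 9 libraries, and PGR had 0 counts in all of them. Nexturastat A was given to cells with NKX2-1 near 58.5 CPM and the other inhibitors to cells with NKX2-1 near 1.10 CPM, so the compounds' effects on NKX2-1 are given side by side and were not compared.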

How the data were processed

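RNA-seq of total RNA gave deposited tables of raw read counts per gene symbol, which the authors made, per the submitters' processing notes, with Trim Galore 0.6.7, STAR 2.7.9a and featureCounts 2.0.3 on GRCh38/hg38; DESeq2 1.30.1 is also named there. Neither the gene annotation nor the strand setting is given in the sources used here. From these counts, levels were computed as CPM over each library's total, and comparisons were fitted over all genes with edgeR 4.0.16 in R 4.3.3 (robust quasi-likelihood, TMM, filterByExpr with a minimum count of 10 and total of 15, Benjamini-Hochberg adjustment, called under 0.05). The compound and hairpin groups shared 1 estimate of spread per experiment. DESeq2 1.42.0 was an alternative. Tables were handled in Python 3.11.15 with pandas 2.3.3, and 23899 of 26485 symbols (90.2%) matched GENCODE 29, which gave positions, exon length and GC content. The test was also run on simulated counts with known changes and the same spread for every gene. No replicate stood apart in those counts, so that run does not bear on the fit over 9 hairpin libraries. The 10 genes, the lists and the rules were chosen with earlier results of these data known. Named in every comparison were the 10 genes and HDAC6, of each list at most 4 called genes with the largest change (in untreated sets the highest levels), and the 3 genes most correlated with each of the 10; other names are said to be chosen after their values were seen or are neighbours described for their level. Over the 9 hairpin libraries, same-numbered libraries deviated together (9 correlations of deviations from group means, 0.468 to 0.938). Differently numbered libraries ranged from -0.906 to 0.859, since replicate 3 ran against replicates 1 and 2, which followed each other across numbers. For instance, shCtrl replicate 1 was at 0.575 with shHDAC6-1 replicate 2 and at 0.565 with shHDAC6-1 replicate 1. The number thus set replicate 3 apart, and it did not pair libraries within replicates 1 and 2 or in the other experiments. Alternatives were DESeq2 size factors, DESeq2, no filter, a minimum mean of 5 CPM, the replicate block, leaving out each library, and, added after seeing the data, removal of GC and length trends (natural splines, 3 degrees of freedom each).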

Additional observations from a re-analysis of the deposited data

Results flagged for a closer look

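FOXA1 moved in opposite directions in the hairpin replicates when each was set against its like-numbered shCtrl library. With shHDAC6-1 its log2 ratio was -1.86 in replicate 3 and 0.30 and 0.28 in replicates 1 and 2. With shHDAC6-2 it was -2.04 in replicate 3 and 0.20 and 0.37 in replicates 1 and 2. GATA3 with shHDAC6-2 was at 0.21 in replicate 3 and at -0.32 and -0.18 in replicates 1 and 2. These differences were not tested, since replicate 3 is 1 library per group.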

How the results depend on the processing

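The number of genes called with Nexturastat A was 6112 in the fit reported, 3586 with a minimum mean of 5 CPM, and 1781 to 8922 when 1 library was left out, with 1781 without Ctrl replicate 1 and 1921 without Ctrl replicate 2. With shHDAC6-1 in replicates 1 and 2 it was 5401, and 3160 to 5963 with 1 library left out. After removal of GC and length trends these comparisons had 7922 and 7406 calls, and 33.9% and 61.0% of them were higher, against 57.6% and 50.1% in the fits reported. For HPOB the 4 calls became 14 with no filter, 2 with the minimum of 5 CPM, 7 with the replicate block, 9 after removal of GC and length trends, 102 in DESeq2, and 0 to 4 with 1 library left out. For Tubastatin A the 0 calls became 1 after removal of these trends and 18 in DESeq2. Over 9 hairpin libraries the 0 calls became 3 with each hairpin in DESeq2 and stayed at 0 under the replicate block, which changed no member's call there (FOXA2 -1.46 and -1.70). Replicates 1 and 2 share only a number (correlations -0.0465 to 0.161), and the block gave 6163 and 5685 calls, with NKX2-1 called lower with shHDAC6-1 (-0.38, edgeR adjusted p = 0.0422). The NKX2-1 level in shCtrl replicates 1 and 2 was 14.9 CPM under TMM and 14.6 under DESeq2 size factors, and in shCtrl replicate 3 it was 56.9 under DESeq2 size factors. Some log2 fold changes changed sign. After removal of GC and length trends these were FOXA2 with Nexturastat A (-0.48), PGR with shHDAC6-1 (-0.028), FOXA2 with HPOB (-0.076), and NKX2-1, FOXA1 and GATA3 with Tubastatin A (-0.12, -0.019 and -0.045). Under the block they were SFTA3 with shHDAC6-1 (0.013) and FOXA1 with HPOB and Tubastatin A (-0.029 and -0.23). With 1 library left out, FOXA2 with Nexturastat A ran from -0.059 to 0.23. In hairpin replicates 1 and 2, SFTA3 ran from -0.37 to 0.43 and from -0.49 to 0.40, PGR from -0.071 to 0.17 and from -0.65 to 0.17, and ESR1 with shHDAC6-2 from -0.061 to 2.07. Over 9 libraries, NKX2-1 ran from -1.42 to 0.65 and from -1.32 to 0.56, and FOXA2 from -4.36 to 1.93 and from -4.46 to 1.56. With HPOB, FOXA1 ran from -0.24 to 0.35, FOXA2 from -0.022 to 0.086 and GATA6 from -0.14 to 0.026. With Tubastatin A, NKX2-1 ran from -0.19 to 0.33, FOXA1 from -0.55 to 0.60, GATA6 from -0.077 to 0.047 and GATA3 from -0.083 to 0.18. Except where a library was left out, the cause was not tested. Depth limits SFTPB, ESR1 and PGR in all experiments, and SFTA3 and FOXA1 in the DMSO experiment.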
